A study of Mus musculus with 9 samples.

Results

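The nuclear genes for the subunits of the 5 respiratory chain complexes and for the Ndufaf assembly factors were followed in the liver of control mice, of mice with non-alcoholic steatohepatitis (NASH) and of mice with NASH that trained on a treadmill. Members were all genes whose Entrez identifier maps to a mouse symbol that begins with Nduf, Uqcr, Cox4 to Cox8 or Atp5, or that is Sdha, Sdhb, Sdhc or Sdhd. The rule used names only and no measured value. It matched 115 symbols, of which 19 were pseudogenes and were left out, and 92 of the remaining 96 genes were among the 17846 genes in the files. Ndufb1, Ndufb4b, Cox7b2 and Cox8c were not analysed here. The 92 members were 37 subunits of complex I, 8 Ndufaf factors, 4 subunits of complex II, 8 of complex III, 18 of complex IV and 17 of complex V. Ndufa4, which was named for complex I, was counted with complex IV, where its protein sits. A total of 89 members had enough reads to be tested, and Cox4i2, Cox6a2 and Cox8b did not.

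Complex I takes electrons from NADH and complex II takes them from succinate, and both pass them to coenzyme Q. Complex III hands the electrons on to cytochrome c and complex IV to oxygen, while complexes I, III and IV pump protons that complex V, the ATP synthase, lets back to make ATP. Hepatocytes are rich in mitochondria and use this chain to oxidise fatty acids. Assembly factors help to build complex I but are not part of the finished enzyme. Subunits encoded in the mitochondrial genome were not analysed here.

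The mice were male, WT and of strain C57/BL, and 1 liver library was made for each of 9 mice after an overnight fast. Control mice (replicates 3, 4 and 29) had a normal diet, and NASH mice (replicates 5, 19 and 20) had the Ath diet, an atherogenic diet with added cholesterol and cholate, for 20 weeks. NASH+Exercise mice (replicates 8, 18 and 22) had the Ath diet for 12 weeks and then 8 weeks of treadmill training, which began at 20 weeks of age. The labels do not say whether the Ath diet went on during training, so training and a shorter diet cannot be told apart. The labels give no separate control that trained without the Ath diet. Libraries held 20086004 to 22495449 estimated counts. Changes were tested by edgeR on counts scaled by TMM, which sets the bulk of genes level between libraries, over 13619 genes, and per-mouse values are given as CPM after TMM, which are counts scaled to a common library size. Levels of different genes were compared only as TPM, the share of a transcript among all transcripts, which corrects for its length. The TMM factors were 0.80 to 0.976 among Control mice, 1.09 to 1.23 among NASH mice and 0.912 to 1.08 among NASH+Exercise mice, and both scales are given where they differ.

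In Control livers the members together held 23167 to 23388 TPM, or 2.33% ± 0.0118 (SD, n = 3) of the TPM of all genes in the files. Complex V had the highest sum, with 7299 TPM ± 48.6 (SD, n = 3), followed by complex I with 6345 ± 90.7 and complex IV with 6236 ± 103. The sum for complex III was 2478 TPM ± 108 and that for complex II was 825 ± 21.1. The 8 Ndufaf factors held only 119 TPM ± 2.25, equal to 1.88% ± 0.0627 of the complex I sum. The most abundant members in Control were Cox6a1 of complex IV, Atp5b, the catalytic beta subunit of the ATP synthase, and Ndufa4, at 984 TPM ± 43.8, 941 ± 47.4 and 804 ± 77.1 (SD, n = 3). Averaged over all 9 mice, the highest in complex I were Ndufb9, Ndufa3 and Ndufa6, in complex II Sdhc, Sdhb and Sdha, and in complex III Uqcr11, Uqcrb and Uqcr10, and the order within complexes II and III was not the same in every group.

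Many nuclear respiratory chain genes are known to carry sites for NRF1, for ETS factors such as GABP and for YY1 close to their start. Promoter windows from RefSeq (GRCm38.p6), 250 bases before to 50 bases after a start, were present for 75 of the 92 members as 80 windows, and were searched on both strands for the palindromic core of the NRF1 site, for CCGGAAG (ETS) and for ATGGCGGC (YY1), none of which lies within another. The NRF1 letters were found in 8.75% of member windows and in 0.971% of all 32851 windows, the ETS letters in 23.8% and 8.86%, and the YY1 letters in 10% and 2.24%. Among the windows of genes tested here the shares were 1.89% for NRF1, 15.9% for ETS and 4.31% for YY1. Of the 8 member windows with the YY1 letters, 7 belonged to complex I, and windows of complexes II to V held none. The 250 bases before the start are shown for a member of each complex that is described in the next paragraphs. They are also shown for Cox7a2l, which was not called in any comparison. These 6 genes were picked by hand, and for a gene with several windows one that held a motif was taken. They do not represent the members, since 38.8% of member windows held any of the 3 motifs, beside 20.7% of windows of genes tested. Capitals mark the NRF1 or ETS letters on either strand, and all 6 genes lie on the minus strand, at chr2:90904722-90904971 (Ndufs3), chr9:50603850-50604099 (Sdhd), chr10:80406822-80407071 (Uqcr11), chr5:115348959-115349208 (Cox6a1), chr5:108434400-108434649 (Atp5k) and chr17:83514334-83514583 (Cox7a2l).
Ndufs3: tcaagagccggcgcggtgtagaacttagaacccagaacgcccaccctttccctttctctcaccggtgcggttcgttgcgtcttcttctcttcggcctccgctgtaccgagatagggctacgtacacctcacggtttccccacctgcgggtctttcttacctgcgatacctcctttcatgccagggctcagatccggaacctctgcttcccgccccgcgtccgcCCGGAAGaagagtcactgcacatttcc
Sdhd: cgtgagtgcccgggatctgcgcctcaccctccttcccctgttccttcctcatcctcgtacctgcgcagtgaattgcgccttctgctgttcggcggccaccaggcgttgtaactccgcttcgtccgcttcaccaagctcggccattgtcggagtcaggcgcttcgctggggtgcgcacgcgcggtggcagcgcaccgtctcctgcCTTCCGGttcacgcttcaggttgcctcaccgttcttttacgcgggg
Uqcr11: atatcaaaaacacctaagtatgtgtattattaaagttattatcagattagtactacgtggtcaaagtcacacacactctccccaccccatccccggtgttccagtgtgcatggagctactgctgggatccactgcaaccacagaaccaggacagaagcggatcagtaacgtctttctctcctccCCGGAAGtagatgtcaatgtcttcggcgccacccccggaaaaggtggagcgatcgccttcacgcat
Cox6a1: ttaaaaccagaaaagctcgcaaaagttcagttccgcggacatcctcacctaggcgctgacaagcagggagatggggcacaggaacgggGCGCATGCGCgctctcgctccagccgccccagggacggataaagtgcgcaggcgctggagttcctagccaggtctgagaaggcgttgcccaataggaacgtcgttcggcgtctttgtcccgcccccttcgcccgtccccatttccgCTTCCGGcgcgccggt
Atp5k: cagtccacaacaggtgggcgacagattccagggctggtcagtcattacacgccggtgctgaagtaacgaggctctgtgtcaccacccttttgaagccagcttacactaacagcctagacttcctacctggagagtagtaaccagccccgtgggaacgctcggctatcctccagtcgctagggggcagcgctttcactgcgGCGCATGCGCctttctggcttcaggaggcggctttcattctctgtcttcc
Cox7a2l: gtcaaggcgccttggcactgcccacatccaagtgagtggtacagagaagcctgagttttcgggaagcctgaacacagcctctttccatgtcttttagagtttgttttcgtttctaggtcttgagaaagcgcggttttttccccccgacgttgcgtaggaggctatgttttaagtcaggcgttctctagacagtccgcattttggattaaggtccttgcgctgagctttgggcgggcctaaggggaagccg
Counted from the start, the ETS letters began at position -27 in Ndufs3, -46 in Sdhd and -66 in Uqcr11. Cox6a1 had the NRF1 letters at -162 and the ETS letters at -16, and Atp5k had the NRF1 letters at -50. Past the start, in bases that are not shown, Ndufs3 had the ETS letters again at 2 and Atp5k had them at 13. Cox7a2l held none of the 3 motifs in its window. Tested members with and without a motif had close medians in NASH against Control, at -0.59 and -0.63 on the log2 scale for NRF1 (7 and 67 members), -0.63 and -0.61 for ETS (19 and 55), and -0.55 and -0.61 for YY1 (7 and 67).

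In NASH livers the respiratory chain genes were lower than in Control across all 5 complexes. At an adjusted p under 0.05, 74 of the 89 tested members fell and 0 rose, against 14.4% of all tested genes that fell and 21.2% that rose. The log2 fold change was negative for 87 members and for 49% of all genes, with a median of -0.61 beside 0.01 over all tested genes. By class, 33 of 37 complex I subunits fell (median -0.61), 4 of 4 in complex II (-0.71), 7 of 8 in complex III (-0.73), 11 of 15 tested in complex IV (-0.60), 17 of 17 in complex V (-0.66) and 2 of 8 Ndufaf factors (-0.47). The changes were modest, and 2 members were DEGs at an absolute log2FC above 1, both lower, where 3.03% of all genes were lower DEGs. At an unadjusted p under 0.05, 82 members were lower and 1 was higher, against 19.9% and 25.4% of all genes. DESeq2 called 75 lower on the 6 mice and 78 on all 9, against 12.3% and 14.9% of all genes. It also called 1 member higher in each fit, Cox6a2, which edgeR did not test, against 16.7% and 18.5%.

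The NASH and Control mice did not overlap in CPM for 77 members that were lower in NASH, where 22.2% of all genes showed this, and for 1 that was higher, Ndufa4l2, against 27.4%. In CPM, replicate 4 was highest of the Control mice for 69 of 89 members and replicate 29 lowest for 76. In TPM, replicate 4 was highest for 40 members, replicate 29 for 28 and replicate 3 for 21. Among the NASH mice, replicate 20 was highest for 64 members in CPM and replicate 19 lowest for 57. In TPM, replicate 19 was highest for 37 members, replicate 20 for 29 and replicate 5 for 23. These orders were not computed over all genes. A higher TMM factor lowers every CPM of a library. The factors were 0.906, 0.80 and 0.976 for Control replicates 3, 4 and 29. They were 1.09, 1.23 and 1.09 for NASH replicates 5, 19 and 20. Leaving out any 1 mouse left 53 to 78 members lower. The number of lower DEGs was 5 without Control replicate 29, 3 without Control replicate 3, 1 without NASH replicate 19 and 0 without Control replicate 4.

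**Figure D1:**
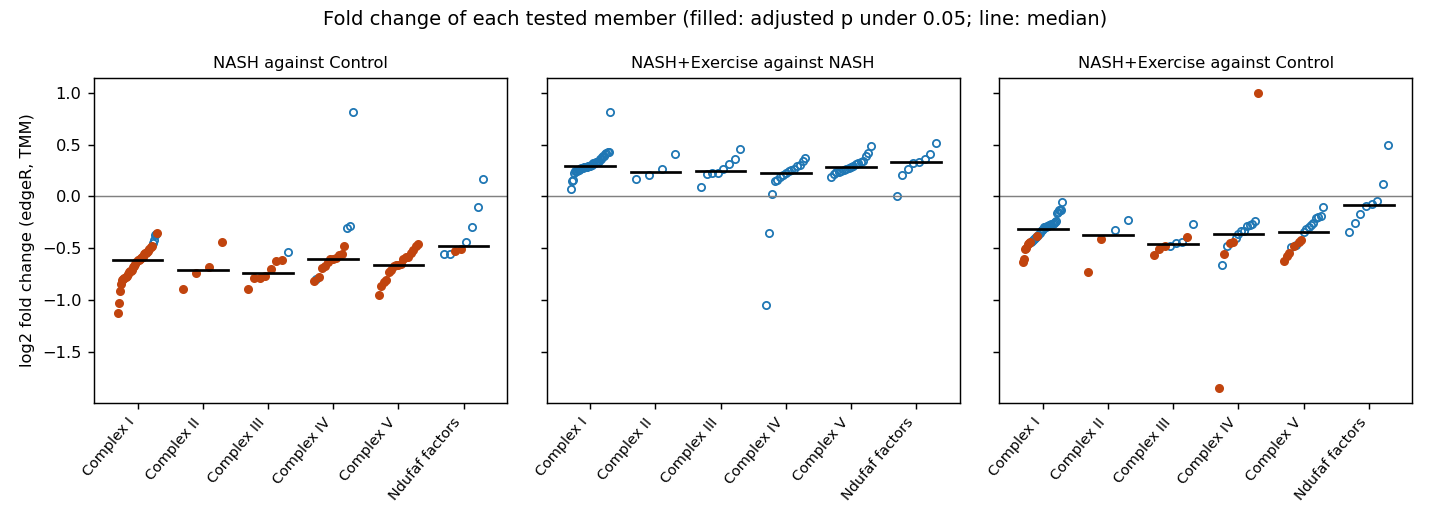
Each point is the log2 fold change of 1 tested member (edgeR, TMM) in its complex for the 3 comparisons, filled at an adjusted p under 0.05, with a line at the class median. The medians of the complexes lie between -0.73 and -0.60 in NASH against Control and between 0.23 and 0.30 in NASH+Exercise against NASH, where no point is filled and where the medians of complexes II to V turn negative in TPM.

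Complex I is the largest of the complexes. All 7 core subunits, which carry the flavin and the iron-sulfur clusters, fell in NASH, with log2FC from -0.91 to -0.56. Of these, Ndufs1, Ndufs8 and Ndufv2 were called neither with scaling by library size alone nor in TPM. Ndufs7, which holds a cluster next to the coenzyme Q site, had 102, 117 and 86.5 CPM in Control, 53.4, 51.1 and 57.2 in NASH and 55.2, 62.6 and 78.5 in NASH+Exercise. The NASH values lay well below every Control value. Its log2FC was -0.91 ± 0.16 (SE, adjusted p = 0.00117). Ndufs3 (promoter above) had 115, 136 and 99.7 CPM in Control against 71.2, 68.2 and 79.1 in NASH (log2FC -0.68 ± 0.14, adjusted p = 0.00419), and Ndufv1, which binds NADH and the flavin, had a log2FC of -0.75 ± 0.17 (adjusted p = 0.00558). Ndufs8 was the weakest of the core subunits (-0.56 ± 0.19, adjusted p = 0.0426), its Control value of 45.8 CPM in replicate 29 lay within the NASH range, and its adjusted p was 0.0524 to 0.128 without any 1 of Control replicates 3 and 4 and NASH replicates 5, 19 and 20.

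Among the 30 accessory subunits, 26 fell. Ndufb9, an accessory subunit of the membrane arm and the most abundant complex I transcript, was the clearest, with 212, 262 and 181 CPM in Control, 110, 96.8 and 114 in NASH and 127, 147 and 157 in NASH+Exercise. Its 3 groups did not overlap. The log2FC in NASH was -1.03 ± 0.16 (adjusted p = 0.000571). Its share of the complex I TPM, which does not depend on the scale, was 7.79 to 8.34% in Control and 6.08 to 6.49% in NASH. The other DEG was Ndufb4c, at 9.66, 13.2 and 8.32 CPM in Control and 5.28, 4 and 5.02 in NASH (log2FC -1.12 ± 0.29, adjusted p = 0.0126). Ndufb4c is a near-identical copy of Ndufb4 with counts that are not whole, so how reads were split between them is uncertain. The smallest decrease in complex I was that of Ndufs4 (-0.35 ± 0.11, adjusted p = 0.0288), which had 45.9, 39.7 and 40.1 CPM in Control and 31.3, 32.5 and 34.5 in NASH, was at 0.0671 to 0.104 without Control replicate 3, NASH replicate 5 or NASH replicate 19, and had a log2 change of 0.08 in TPM. Ndufa1, Ndufa2, Ndufa8 and Ndufv3 were not called, with log2FC of -0.45 to -0.36. The abundant Ndufa3 and Ndufa6 fell by 0.53 and 0.61 on the log2 scale (adjusted p = 0.0153 and 0.00278), and Ndufa3 was at 0.0612 without NASH replicate 19.

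The Ndufaf factors were less often called than the subunits they help to assemble, though the difference was not tested and the factors had lower counts than most subunits. Ndufaf1, which works in the assembly of the membrane arm, had 19.1, 20.6 and 17.6 CPM in Control, 13.7, 12.6 and 14.0 in NASH and 16.7, 16.6 and 17.6 in NASH+Exercise. Every NASH mouse was below every Control mouse in CPM (log2FC -0.51 ± 0.11, adjusted p = 0.00598), while the groups overlapped in TPM. Ndufaf2 was the other called factor (-0.52 ± 0.15, adjusted p = 0.0221). Ndufaf6 (-0.55 ± 0.21, adjusted p = 0.0642) and Ndufaf8 (-0.55 ± 0.21, adjusted p = 0.0586) had the lowest estimates but did not pass, and Ndufaf6 passed without Control replicate 29 (adjusted p = 0.00666). Ndufaf5 had 2.31, 3.50 and 2.19 CPM in Control and 3.03, 2.87 and 3.10 in NASH, which overlapped (log2FC 0.17 ± 0.24, adjusted p = 0.625). Ndufaf7 had 10.4, 10.3 and 10.6 CPM in Control and 10.1, 10.7 and 8.20 in NASH, also overlapping (-0.10 ± 0.15, adjusted p = 0.62). In summed TPM the factors had 118 to 122 in Control and 113 to 129 in NASH, so that they stood at 1.83 to 1.95% of the complex I sum in Control and at 2.11 to 2.35% in NASH, without overlap. In TPM the median log2 change of all tested genes was 0.34, so a level sum of the factors lay below the bulk of genes.

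All 4 subunits of complex II, succinate dehydrogenase, fell in NASH. Sdhd, a membrane anchor (promoter above), had 126, 141 and 119 CPM in Control, 71.4, 68.1 and 68.5 in NASH and 76.2, 74.5 and 82.4 in NASH+Exercise. The NASH mice lay close together and far below Control. Its log2FC of -0.89 ± 0.11 had the smallest adjusted p of any member (0.000157). Sdha, the flavoprotein that oxidises succinate, had a log2FC of -0.68 ± 0.13 (adjusted p = 0.00223) and Sdhb, the iron-sulfur subunit, one of -0.73 ± 0.19 (adjusted p = 0.013, and 0.0527 without NASH replicate 19). The other anchor, Sdhc, had 178, 234 and 166 CPM in Control and 146, 127 and 152 in NASH, the smallest decrease of the complex (-0.44 ± 0.16, adjusted p = 0.0481). Sdhc was not called without any 1 of Control replicates 3 and 4 and NASH replicates 5, 19 and 20 (adjusted p = 0.0653 to 0.151). Within complex II the share of Sdhd went from 16.7 to 19% of the TPM in Control to 14.5 to 16.4% in NASH, and that of Sdhc from 28.9 to 30.5% to 33.5 to 36.0%, so that the 2 anchors moved apart.

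Complex III had the lowest class median. Uqcr11, a small subunit and the most abundant of the complex (promoter above), had 147, 191 and 129 CPM in Control, 80.5, 80.7 and 90.5 in NASH and 103, 114 and 127 in NASH+Exercise. The 3 groups did not overlap. Its log2FC in NASH was -0.89 ± 0.16 (adjusted p = 0.00138). Uqcr10 had a log2FC of -0.79 ± 0.15 (adjusted p = 0.0021). Uqcrb, which lies near the coenzyme Q site, was not called (-0.54 ± 0.20, adjusted p = 0.0577). Control replicate 4 had 84.1 CPM, inside the NASH range of 67.1 to 92.6, while the other Control mice had 148 and 124. Without Control replicate 4 it had a log2FC of -0.75 (adjusted p = 0.00474).

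In complex IV, cytochrome c oxidase, 11 of the 12 subunits usual in liver fell and none of the 3 tested isoforms of other tissues did. Cox6a1 (promoter above) had 330, 409 and 284 CPM in Control, 202, 181 and 197 in NASH and 199, 235 and 264 in NASH+Exercise. The NASH mice lay below every Control mouse. Its log2FC was -0.82 ± 0.16 (adjusted p = 0.00289). Cox4i1, the regulatory subunit present in most tissues, Cox8a and Cox6b1 had log2FC of -0.77 ± 0.18, -0.69 ± 0.13 and -0.63 ± 0.15 (adjusted p = 0.00805, 0.0025 and 0.00693). Ndufa4 fell by 0.48 on the log2 scale (adjusted p = 0.015), and was at 0.0509 to 0.062 without Control replicate 3, NASH replicate 5 or NASH replicate 19.

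Cox7a2l, a relative of Cox7a2, was the liver subunit of complex IV that did not pass. It had 86.6, 115 and 93.6 CPM in Control, 83.4, 74.7 and 83.9 in NASH and 86.7, 74.8 and 84.5 in NASH+Exercise. The NASH values lay just under the lowest Control value (log2FC -0.29 ± 0.13, adjusted p = 0.115). In TPM the order was the other way, with 121, 138 and 148 in Control and 153, 151 and 149 in NASH. Cox7a2 had 85.9, 91.2 and 85.4 CPM in Control and 53.6, 56.5 and 62.3 in NASH (-0.61 ± 0.11, adjusted p = 0.00136). Of the TPM of the 3 Cox7a genes, Cox7a2l took 39.8 to 45.6% in Control and 46.8 to 50.4% in NASH.

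The isoforms known from heart, muscle, lung or testis were near the limit of detection. Cox7a1, a heart and muscle isoform, had 1.66, 1.22 and 0.816 CPM in Control and 1.29, 0.854 and 0.85 in NASH (log2FC -0.30 ± 0.36, adjusted p = 0.555). Ndufa4l2, a relative of Ndufa4 known to be induced by hypoxia, had 1.02, 0.834 and 0.714 CPM in Control, 1.33, 1.40 and 1.79 in NASH and 2.18, 1.09 and 1.85 in NASH+Exercise. Every NASH mouse lay above every Control mouse, but the log2FC of 0.81 ± 0.33 did not pass (adjusted p = 0.0772). Cox6a2, the muscle form of Cox6a1, was listed with 0 counts in all Control mice, with 6, 7 and 5 in NASH and with 10, 3.45 and 2 in NASH+Exercise. Cox4i2 and Cox8b had at most 4 counts in any mouse.

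All 17 members of complex V, the ATP synthase, fell in NASH. Atp5b had 1113, 1412 and 1087 CPM in Control, 712, 585 and 690 in NASH and 708, 788 and 933 in NASH+Exercise. The NASH values were all below the Control values (log2FC -0.86 ± 0.17, adjusted p = 0.00263). Atp5d, the delta subunit of the F1 stalk, had a log2FC of -0.82 ± 0.17 (adjusted p = 0.00339). The 5 F1 subunits had a median of -0.73 and the 12 subunits of the membrane part and stalks one of -0.62. Subunit c, which forms the rotor ring, is made from 3 genes whose mature proteins are the same, and these genes did not fall alike. Atp5g3 had 253, 352 and 239 CPM in Control, 156, 127 and 156 in NASH and 150, 185 and 212 in NASH+Exercise, the lowest log2FC of complex V (-0.95 ± 0.18, adjusted p = 0.00267). Atp5g2 had 104, 145 and 107 CPM in Control and 92.0, 80.7 and 86.0 in NASH, the smallest decrease (-0.46 ± 0.16, adjusted p = 0.0486). Atp5g1 lay between them (-0.59 ± 0.17, adjusted p = 0.0229). Atp5g2 was at 0.075 to 0.138 without any 1 of Control replicate 4 and NASH replicates 5, 19 and 20, and Atp5g1 at 0.0562 to 0.0784 without Control replicate 4, NASH replicate 5 or NASH replicate 19. The log2 change of Atp5g2 was -0.1 by library size alone and -0.008 in TPM, and it was not called on either scale.

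The shares of the 3 subunit c genes within a mouse do not depend on how libraries are scaled. Atp5g3 took 47.0, 48.3 and 47.9% of their TPM in Control, 41.2, 39.0 and 41.7% in NASH and 39.8, 41.6 and 40.2% in NASH+Exercise. Atp5g2 took 21.5, 22.2 and 23.8% in Control, 27.2, 27.6 and 25.6% in NASH and 25.7, 25.2 and 25.3% in NASH+Exercise. The Control mice did not overlap with either diet group, while NASH and NASH+Exercise overlapped for both genes. An exact permutation test of 3 mice against 3 cannot give a two-sided p under 0.1, so these shares were described and not tested.

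**Figure D2:**
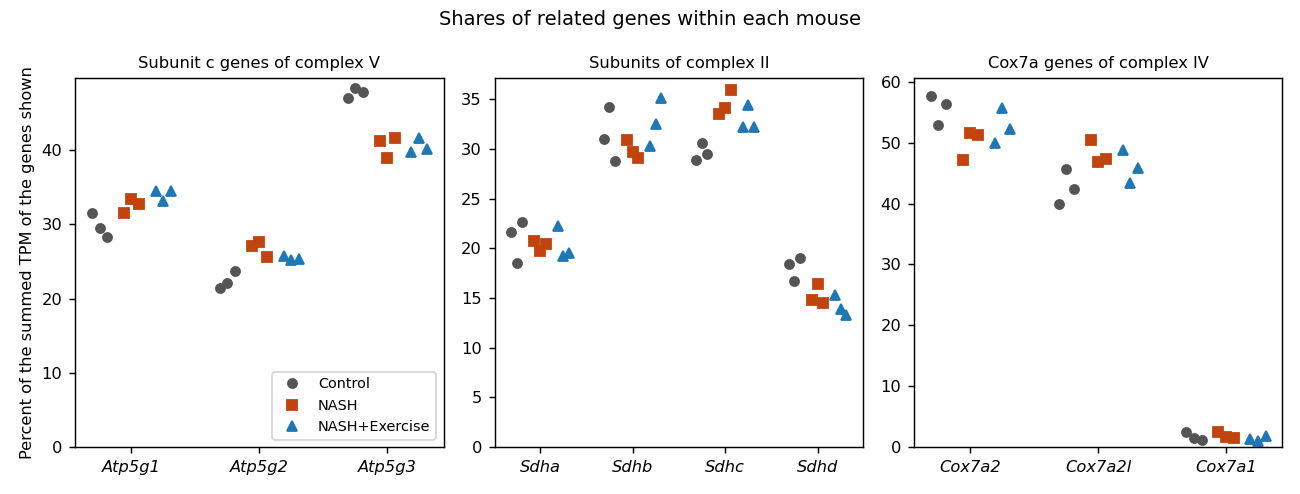
Points are single mice and show the percent of the summed TPM of the genes named on the x axis, for the subunit c genes of complex V, the subunits of complex II and the Cox7a genes of complex IV. Atp5g3 holds 47.0 to 48.3% in Control and 39.0 to 41.7% in NASH, and Sdhd is lower and Sdhc higher in the NASH mice than in the Control mice.

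The size of the decrease depended on the scale, while its direction against other genes did not. Scaling by library size alone put the median of all genes at 0.36 (log2) in NASH against Control and that of the members at -0.25, and 36 members were called lower (4.65% of all genes) and 1, Ndufa4l2, higher (33% of all genes). With limma on log2(TPM + 1) the medians were 0.34 and -0.16, with 31 members lower (3.85%) and Ndufaf5 and Ndufa4l2 higher (37%). Relative to the median of all genes the members stood at -0.62 by TMM, -0.61 by library size and -0.50 by TPM. Of the TPM of all genes in the files, the members held 2.32 to 2.34% among Control mice, 1.93 to 2.02% among NASH mice and 1.95 to 1.97% among NASH+Exercise mice. The summed TPM was 14.8% lower in NASH than in Control. Of the 89 tested members, 42 did not overlap in TPM and were lower in NASH, against 5.59% of all genes. In a bulk tissue sample, fewer cells of a type and less RNA per cell cannot be told apart.

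**Figure D3:**
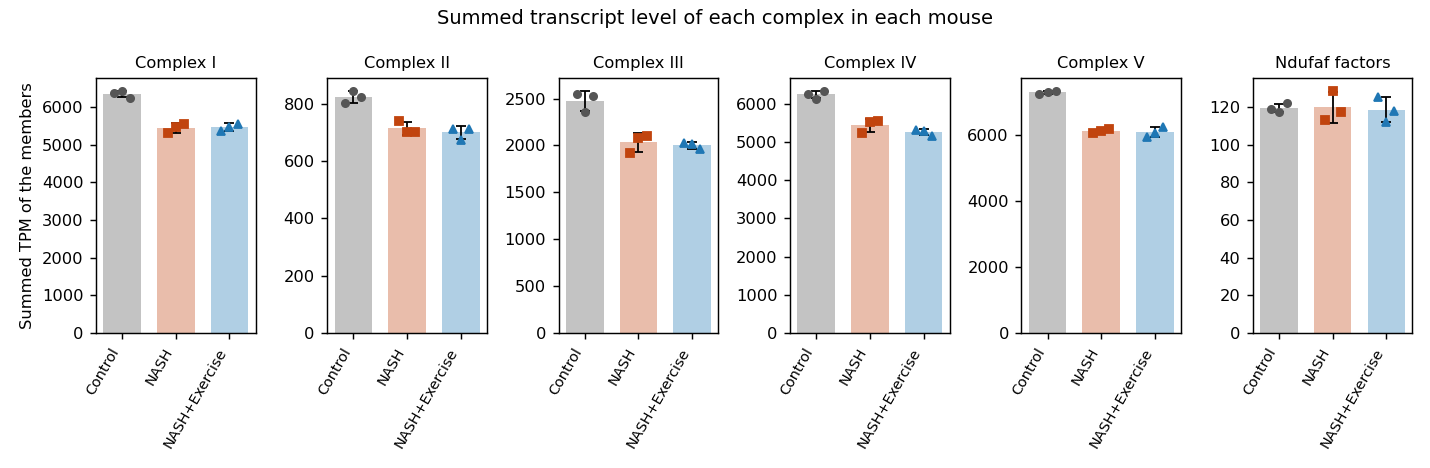
Bars are the mean summed TPM of the members of each complex, error bars are the SD of 3 mice and points are single mice. For each of the 5 complexes every NASH and NASH+Exercise mouse lies below every Control mouse, and NASH and NASH+Exercise overlap, while the sums of the Ndufaf factors overlap in all groups. In CPM after TMM the NASH+Exercise sums are higher than the NASH sums.

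The balance between the nuclear-encoded parts of the complexes moved little. Complex I held 26.8 to 27.8% of the subunit TPM among Control mice, 27.5 to 27.6% among NASH mice and 27.7 to 28.3% among NASH+Exercise mice. Complex III held a mean of 10.7%, 10.3% and 10.3% in the same order, with overlap. For complexes II, IV and V the Control and NASH mice overlapped as well.

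NASH+Exercise against NASH compares mice with and without training that had all been given the Ath diet. Nearly all members had a positive estimate after TMM in this comparison but none was called by edgeR. edgeR called 0 of 89 members higher and 0 lower, where 0.11% and 0.0514% of all tested genes were called. At an unadjusted p under 0.05, 21 members were higher, against 4.6% of all genes, and 0 were lower, against 10.7%. DESeq2 called 0 on all 9 mice, against 0.879% of all genes, and 2 on the 6 mice of the comparison, Ndufb9 (log2FC 0.47, adjusted p = 0.0387) and Uqcr11 (0.50, adjusted p = 0.0186), where it called 1.72% of all genes higher. The estimate was positive for 87 of 89 members and for 45.1% of all genes, with a median of 0.28 beside -0.03 over all genes. By class the medians were 0.30 for complex I, 0.24 for complexes II and III, 0.23 for complex IV, 0.29 for complex V and 0.33 for the Ndufaf factors.

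The largest estimates in each class belonged to Ndufb4c in complex I (0.81 ± 0.29, adjusted p = 0.237), Sdhb in complex II (0.41 ± 0.19, adjusted p = 0.34), Uqcr11 in complex III (0.45 ± 0.15, adjusted p = 0.223), Cox5a in complex IV (0.37 ± 0.17, adjusted p = 0.335), Atp5k in complex V (0.49 ± 0.15, adjusted p = 0.2) and Ndufaf6 among the factors (0.51 ± 0.21, adjusted p = 0.283). Atp5k, a small subunit of the membrane part (promoter above), had 37.9, 45.4 and 36.3 CPM in Control, 24.5, 23.5 and 31.7 in NASH and 33.2, 35.7 and 42.6 in NASH+Exercise. The NASH+Exercise mice lay above the NASH mice and overlapped with Control. The smallest estimates of their classes were those of Ndufs4 (0.08), Sdhd (0.16), Uqcrb (0.09), Atp5mpl (0.18) and Ndufaf7 (0.01), all of which were negative in TPM, and in complex IV Cox6b2, a testis isoform near the limit of detection, had -1.04 ± 0.50 (adjusted p = 0.351).

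The NASH+Exercise mice differed among themselves in CPM. Replicate 22 was the highest of the 3 for 80 of 89 members and replicate 8 the lowest for 71. The TMM factors, which lower CPM as they grow, had the reverse order, at 1.08 for replicate 8, 0.979 for 18 and 0.912 for 22. In TPM the order of the CPM was not seen, as replicate 8 was highest for 36 members, replicate 22 for 35 and replicate 18 for 18. The orders over all genes were not computed. In CPM the NASH and NASH+Exercise mice did not overlap for 34 members that were higher with exercise, where 9.16% of all genes showed this. On TPM the picture was another one, with 4 members higher and 7 lower without overlap, against 1.26% and 37.6% of all genes. The member median was 0.07 by library size alone and -0.02 in TPM, while the median of all genes was -0.23 and -0.26, so the members stood 0.31 and 0.23 above it on these scales and 0.32 above it by TMM. Summed TPM were 19340, 20027 and 20216 in NASH and 19502, 19628 and 19744 in NASH+Exercise, which overlapped.

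**Figure D4:**
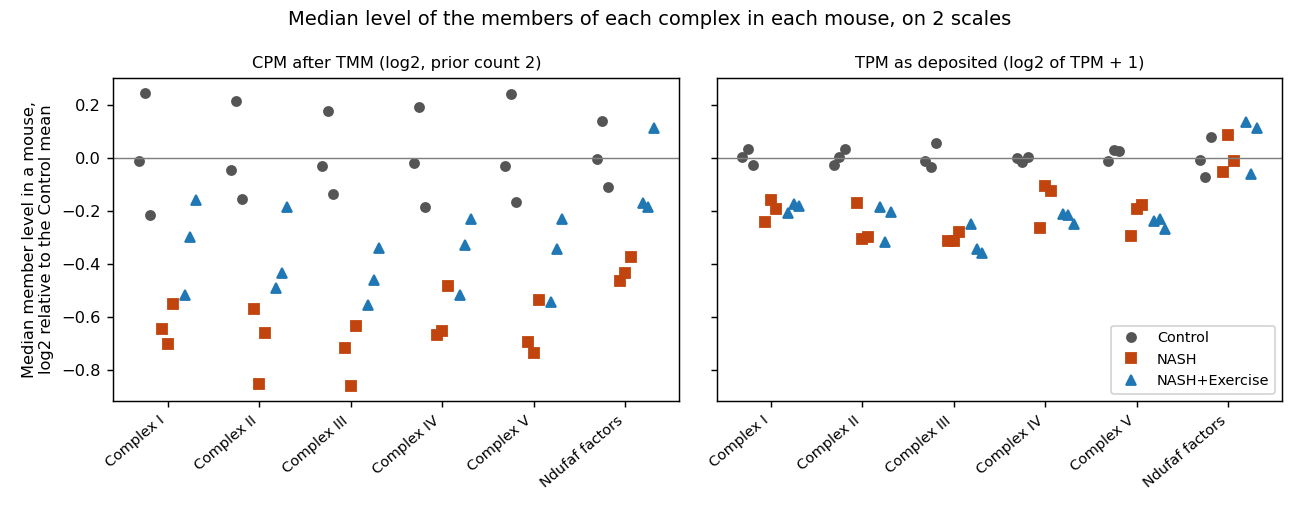
Each point is 1 mouse and gives the median over the tested members of a class of the log2 level relative to the mean of the Control mice, in CPM after TMM (left) and in TPM (right). In CPM every NASH mouse lies below every Control mouse in each class and NASH+Exercise replicate 22 is the highest of its group, while in TPM the NASH and NASH+Exercise mice overlap for each class and the Ndufaf factors of all 3 groups overlap.

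Against Control, the NASH+Exercise livers had 24 members that fell and 1 that rose, where 9.58% of all tested genes fell and 15.6% rose. The comparison shares its Control mice with NASH against Control, and 23 of the 24 had also fallen there. The mean CPM of NASH+Exercise lay between those of NASH and Control for 84 of 89 members, and the share over all genes was not computed. In TPM the mean sum of the members did not lie between. It was 19624 for NASH+Exercise, 19861 for NASH and 23301 for Control, and the NASH+Exercise and NASH mice overlapped. On that scale 44 members of NASH+Exercise lay below Control without overlap, beside 42 of NASH. The median log2FC after TMM was -0.31 for complex I (8 of 37 fell), -0.37 for complex II (2 of 4) and -0.46 for complex III (4 of 8). It was -0.37 for complex IV (4 of 15), -0.34 for complex V (6 of 17) and -0.09 for the Ndufaf factors (0 of 8). No Ndufaf factor was called by edgeR or DESeq2 or had an unadjusted p under 0.05 in edgeR. Over all members the median was -0.33 beside 0 for all genes. The count was less stable than that of NASH against Control, with 4 members lower without NASH+Exercise replicate 8, 8 without NASH+Exercise replicate 18, 8 without Control replicate 3, 13 without Control replicate 4, 23 without NASH+Exercise replicate 22 and 30 without Control replicate 29. An edgeR fit of the 6 mice alone called 8.

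Sdhd had the smallest adjusted p of this comparison among the members, with a log2FC of -0.72 ± 0.11 (adjusted p = 0.000832). The other class extremes that passed were Ndufs7 in complex I (-0.64 ± 0.15, adjusted p = 0.0123), Uqcr10 in complex III (-0.56 ± 0.15, adjusted p = 0.0175) and Atp5g3 in complex V (-0.62 ± 0.18, adjusted p = 0.03). Without NASH+Exercise replicate 8 these 3 had adjusted p of 0.0533, 0.0683 and 0.115, without Control replicate 4 Uqcr10 and Atp5g3 had 0.0529 and 0.0972, and without NASH+Exercise replicate 18 Atp5g3 had 0.0756. Sdhc, Uqcrq, Ndufa2 and Atp5k had the values nearest to Control in complexes II, III, I and V, at -0.23, -0.27, -0.05 and -0.10, and Ndufa2 and Atp5k were slightly positive by library size and in TPM. Ndufaf5 had the highest value of the factors (0.50 ± 0.24, adjusted p = 0.169, and 0.0488 without Control replicate 4).

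The largest changes in this comparison were those of low isoforms of complex IV. Cox6b2 had 0.698, 0.723 and 0.459 CPM in Control, 0.332, 0.233 and 0.51 in NASH and 0.218, 0.189 and 0.0975 in NASH+Exercise. It was the only member that was a DEG here (log2FC -1.84 ± 0.48, adjusted p = 0.0168, with 3.07% of all genes as lower DEGs). Its adjusted p was 0.0565 without Control replicate 3 and 0.0602 without NASH+Exercise replicate 22, and DESeq2 on the 6 mice gave 0.0729. The call rests on few reads, with 13, 13 and 9 counts in Control and 5, 4 and 2 in NASH+Exercise. No NASH+Exercise mouse reached the minimum count of the filter, so Cox6b2 was tested because of its counts in the other groups. Ndufa4l2 rose (0.99 ± 0.33, adjusted p = 0.0472) and was not called without any 1 of Control replicates 3, 4 and 29 and NASH+Exercise replicates 8 and 22 (adjusted p = 0.0711 to 0.17).

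Genes that work next to the complexes were given by lists drawn up for this purpose. The counts called in these lists stand beside the 14.4% of all tested genes that fell in NASH and the 21.2% that rose. Of 10 genes for cytochrome c, cytochrome c1 and other carriers, 7 fell in NASH (median -0.86), and their summed TPM was 1384 to 1607 in Control and 949 to 1064 in NASH. Cyc1, the cytochrome c1 subunit of complex III, which the naming rule does not reach, had 191, 250 and 162 CPM in Control, 114, 94.4 and 115 in NASH and 121, 136 and 176 in NASH+Exercise (log2FC in NASH -0.90 ± 0.19, adjusted p = 0.00407). Cycs, cytochrome c, fell by 0.70 (adjusted p = 0.00328). Suox, Etfdh and Etfb, the last 2 of which carry electrons from fatty acid oxidation to coenzyme Q, fell by 1.40, 1.32 and 1.07 on the log2 scale. Of 39 tested assembly factors other than the Ndufaf factors, 11 fell (median -0.32), with the largest change in Sco2, which delivers copper to complex IV (-1.21), before Ecsit (-0.75) and Coa6 (-0.63). Their summed TPM did not show a decrease, with 1104 ± 80.6 (SD, n = 3) in Control and 1119 ± 75.6 in NASH. Of the TCA cycle enzymes 10 of 13 fell (median -0.66, with Fh1 at -1.20 and Dlst at -0.97), and of the genes for coenzyme Q synthesis 4 of 11 (median -0.42, with Coq3 at -0.88, Coq9 at -0.76 and Coq5 at -0.58). The summed TPM of the TCA cycle was 1384 to 1647 in Control and 1212 to 1277 in NASH, while that of coenzyme Q synthesis was level, at 383 ± 40.7 and 380 ± 38.3.

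Of 18 known transcriptional regulators of these genes, 7 fell in NASH (median -0.28). Esrrg, Ppara and Tfb2m had the largest changes, at -1.95, -0.90 and -0.73, and Tfam, which maintains and transcribes mitochondrial DNA, fell by 0.48 (adjusted p = 0.0193). Esrra had a log2FC of -0.34 (adjusted p = 0.0562), and the coactivators Ppargc1a and Ppargc1b had -0.18 and -0.14 (adjusted p = 0.72 and 0.738). For Ppargc1a the TPM were 1.91, 1.10 and 4.50 in Control and 2.69, 2.60 and 3.18 in NASH, so the Control mice spanned the NASH mice. Among 20 other mitochondrial proteins 16 fell (Phb2 at -0.96 and Timm23 at -0.73 the lowest) and 1 rose, the ADP/ATP carrier Slc25a4 (1.5, adjusted p = 0.00367), and the uncoupling protein Ucp2 rose by 2.28. In NASH+Exercise against NASH the medians were 0.18 for the carriers, 0.13 for the other assembly factors, 0.11 for the TCA cycle, 0.10 for coenzyme Q synthesis, 0.04 for the regulators and 0.13 for the other mitochondrial proteins after TMM. In TPM each of these lists had a lower mean sum with exercise. On that scale the median log2 change of all tested genes was -0.26, and 37.6% of them were lower without overlap. The TCA cycle had 1212 to 1277 TPM in NASH against 1055 to 1173 with exercise, the regulators 282 to 310 against 238 to 280 and the other mitochondrial proteins 2045.67 to 2215 against 1806 to 2045.11, all without overlap. The carriers (means of 1004 and 947 TPM), the other assembly factors (1119 and 992) and coenzyme Q synthesis (380 and 329) overlapped.

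Markers of several other cell types were higher in NASH, where 21.2% of all tested genes were. All 12 macrophage markers were higher in NASH than in Control by edgeR, with a summed level of 142 to 275 TPM among Control mice, 1733 to 2228 among NASH mice and 1174 to 1482 among NASH+Exercise mice, and none of them was at 0 in every library. Of 10 markers of stellate cells and fibroblasts 6 were higher in NASH, with sums of 75.6 to 193 TPM among Control mice, 260 to 442 among NASH mice and 161 to 240 among NASH+Exercise mice. Of 11 hepatocyte markers in the files, 4 were lower in NASH and the median was -0.45. Their summed TPM was 132174 to 137116 among Control mice, 118975 to 146127 among NASH mice and 111011 to 132782 among NASH+Exercise mice, so the markers of the labelled tissue were abundant in every library. Of the markers of neutrophils 6 of 8 were higher in NASH, of T and NK cells 7 of 7, of cholangiocytes 3 of 5 and of endothelial cells 4 of 6. Of 6 erythroid markers 1 was higher, and of the 5 tested B cell markers edgeR called 0 and DESeq2 0, with 1 at an unadjusted p under 0.05. The part of these cell types in the lower levels of respiratory chain genes was not tested.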

How the data were processed

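RNA-seq was done on liver from 9 mice, 3 per group. Per the labels, the authors deposited for each gene and mouse an estimated count, which sums the reads assigned to its transcripts, and FPKM and TPM values, which also scale for transcript length and depth. The submitters' processing notes name HISAT2 2.1.0, Bowtie2 2.2.5 and RSEM 1.2.8. FPKM were not used. Of the counts, 29.0 to 32.8% per library were not whole, and all were rounded before testing.

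Symbols and genes were taken from RefSeq by Entrez identifier (17728 of 17846 matched). Members and gene lists were chosen with earlier results of these data known. Counts were filtered by filterByExpr (minimum count 10), scaled by TMM and fitted for all 9 mice by edgeR 4.0.16 with the robust quasi-likelihood test in R 4.3.3, and p-values were two-sided and adjusted by Benjamini-Hochberg over 13619 genes. DEGs had an adjusted p under 0.05 and an absolute log2FC above 1, the thresholds of the study. Errors of log2FC are standard errors. Alternatives were DESeq2 1.42.0 (on all 9 mice or the 6 compared), limma 3.58.1 on log2(TPM + 1), other scalings, count minimums and leaving out each mouse. Each pair of libraries within a group differed by more than sampling noise, so all were kept as separate samples. The edgeR step was tested on simulated data.

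Members named with values were the DEGs, the largest increase and decrease of each class in each comparison, the complex II subunits, the paralogue sets, the core subunits of complex I, and the 3 members of each complex with the highest TPM. Subunits not called in NASH and the Ndufaf factors were added after their values were seen. From the other lists, up to 3 called genes with the largest change were named, with Ppargc1a, Ppargc1b, Esrra, Tfam, Cyc1 and Cycs.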

Additional observations from a re-analysis of the deposited data

How the results depend on the processing

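In NASH against Control, library size alone gave class medians of -0.27 for complex I, -0.35 for II, -0.38 for III, -0.25 for IV, -0.30 for V and -0.12 for Ndufaf, and log2(TPM + 1) gave -0.16, -0.26, -0.30, -0.16, -0.22 and -0.02. Members lower numbered 36 and 31 on these scales against 74, and members higher 1 and 2 against 0. Cox6a2 made 1 member higher, and 1 higher DEG, without a count filter and in both DESeq2 fits, and Ndufa4l2 made 1 higher DEG by library size. Lower DEGs numbered 0 by library size and in TPM, 1 at a minimum of 50 counts and 4 in TPM centred on library medians, an alternative chosen after seeing the data. Cox7a1 was at 0.047 and Cox7a2l at 0.07 by library size, and in TPM Cox7a1 was at 0.13, Cox7a2l at 0.16, Ndufs4 at 0.08 and Sdhc at 0.011. Ndufaf5 was at -0.077 in centred TPM. The named members Ndufs1, Ndufs4, Ndufs8, Ndufv2, Ndufa3, Ndufa6, Sdhc, Cox7a2, Ndufa4, Atp5g1 and Atp5g2 were called neither by library size nor in uncentred TPM. Sdha, Sdhb and Cox6b1 were not called in uncentred TPM. The other fits (RLE, no robust step, edgeR on 6 mice) left 70 to 76 members lower.

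For NASH+Exercise against NASH, library size alone gave medians of 0.09 for complex I, 0.04 for II, 0.04 for III, 0.02 for IV, 0.08 for V and 0.12 for Ndufaf, and TPM gave 0, -0.06, -0.06, -0.07, -0.02 and 0. Members higher numbered 2 by DESeq2 on 6 mice. By library size Ndufs4 was at -0.13, Ndufaf7 at -0.21, Sdhd at -0.041, Uqcrb at -0.12 and Atp5mpl at -0.031, and in TPM they were at -0.22, -0.29, -0.14, -0.20 and -0.13. Ndufaf7 was at -0.019 with a minimum of 50 counts and ranged from -0.10 to 0.11 when 1 mouse was left out, and Uqcrb ranged from -0.034 to 0.19.

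For NASH+Exercise against Control, the Ndufaf median was 0.05 by library size and 0.04 in TPM, and that of complex III -0.32 and -0.30. Ndufa2 was at 0.094 and 0.076, and Atp5k at 0.046 and 0.031. When 1 mouse was left out, Ndufa2 ranged from -0.14 to 0.063 and Atp5k from -0.21 to 0.023. Members higher numbered 0 at a minimum of 50 counts, in centred TPM, and by DESeq2 and edgeR on 6 mice, where edgeR called 8 lower. Lower DEGs numbered 0 at a minimum of 50 counts, in TPM, and by DESeq2 and edgeR on 6 mice. Higher DEGs numbered 1 by library size, without a count filter and by DESeq2 on all mice.

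Summed levels in CPM after TMM in place of TPM had log2 ratios in NASH against Control of -0.67 for complex I, -0.66 for II, -0.71 for III, -0.64 for IV, -0.74 for V and -0.38 for Ndufaf. The ratios in NASH+Exercise against NASH were 0.31, 0.27, 0.29, 0.25, 0.28 and 0.32, and against Control, for complexes I to V, -0.36, -0.39, -0.43, -0.39 and -0.45.

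Leaving out 1 mouse at a time gave these ranges. In NASH against Control the class medians were -0.77 to -0.53 for complex I, -0.84 to -0.60 for II, -0.83 to -0.68 for III, -0.70 to -0.56 for IV, -0.79 to -0.60 for V and -0.56 to -0.35 for Ndufaf. There the members lower numbered 53 to 78, the members higher 0 throughout, the lower DEGs 0 to 5 and the higher DEGs 0 throughout. Between NASH+Exercise and NASH the class medians were 0.23 to 0.40 for complex I, 0.17 to 0.29 for II, 0.19 to 0.33 for III, 0.18 to 0.30 for IV, 0.20 to 0.39 for V and 0.26 to 0.38 for Ndufaf. There edgeR called 0 members in every such fit. Between NASH+Exercise and Control the class medians were -0.43 to -0.20 for complex I, -0.48 to -0.22 for II, -0.56 to -0.38 for III, -0.43 to -0.27 for IV, -0.44 to -0.27 for V and -0.20 to -0.03 for Ndufaf. There the members lower numbered 4 to 30, the members higher 0 to 1, the lower DEGs 0 to 1 and the higher DEGs 0 to 1.

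In NASH against Control, leaving out Control replicate 4 gave 0 lower DEGs, NASH replicate 19 gave 1 and Control replicate 29 gave 5. Against Control, lower calls in NASH+Exercise numbered 4 when NASH+Exercise replicate 8 was left out, 8 for NASH+Exercise replicate 18 or Control replicate 3, and 13 for Control replicate 4. Lower DEGs numbered 0 without Control replicate 3 or NASH+Exercise replicate 22. Members higher numbered 0 without Control replicates 3 or 29 or NASH+Exercise replicates 8 or 22. Higher DEGs numbered 1 without NASH+Exercise replicate 18.

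No paired analysis was possible because the groups share no replicate number. The isoforms of other tissues rest on few counts, and the split of reads between Ndufb4 and Ndufb4c is uncertain. The cause of the changes with scale was not tested.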
